A study of Capra hircus with 20 samples.

Results

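Libraries of goat hypothalamus of the same age differed widely in MBP, the gene of myelin basic protein, and these differences were used to ask which other genes varied with MBP within a stage. The 5 libraries of each stage were ranked by the FPKM of MBP, and the 2 highest were compared with the 2 lowest. FPKM counts fragments per transcript length and per library total, so that levels are given per length. This gave 8 libraries with high and 8 with low MBP, 16 of the 20 in the series, and the middle library of each stage was left out of that comparison. The groups were therefore selected on a measured value and not by a treatment. MBP itself is given as a description without a test, and a call for another gene describes how it varied with MBP and not the effect of a condition.

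The animals were female Jining grey goats, a breed known for early puberty, raised on the same farm, with no allele, agent or treatment that set groups apart. Groups are named by age as D1 (1 day), M2 (60 days), M4 (120 days) and M6 (180 days), with 5 goats and 5 libraries each. Each library was made from hypothalamus RNA depleted of rRNA. The labels do not say how much of the surrounding tissue was taken with the hypothalamus.

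Myelin is the membrane that oligodendrocytes wrap around axons. MBP holds the inner faces of this membrane together, and its mRNA is among the most abundant of the mature oligodendrocyte. Oligodendrocytes arise from progenitors marked by PDGFRA, and their maturation depends on transcription factors such as SOX10 and MYRF. The hypothalamus is rich in neuron cell bodies and borders large white matter tracts, among them the fornix and the optic tract.

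MBP (gene 106503529, chromosome 24, 2237320 to 2346019 of the goat assembly ARS1.2) was listed in every library. In D1 it was 1251, 1090, 890, 45.6 and 1011 FPKM in replicates 1 to 5. In M2 it was 515, 474, 649, 130 and 444 FPKM. M4 had the widest range, with 23.4, 94.0, 1706, 1073 and 648 FPKM, and M6 had 1022, 398, 981, 56.5 and 810 FPKM. The highest library exceeded the lowest 27.4-fold in D1, 4.98-fold in M2, 72.8-fold in M4 and 18.1-fold in M6. The MBP-high libraries were thus replicates 1 and 2 of D1, 1 and 3 of M2, 3 and 4 of M4 and 1 and 3 of M6, and the MBP-low libraries were replicates 3 and 4 of D1, 4 and 5 of M2, 1 and 2 of M4 and 2 and 4 of M6.

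**Figure D1:**
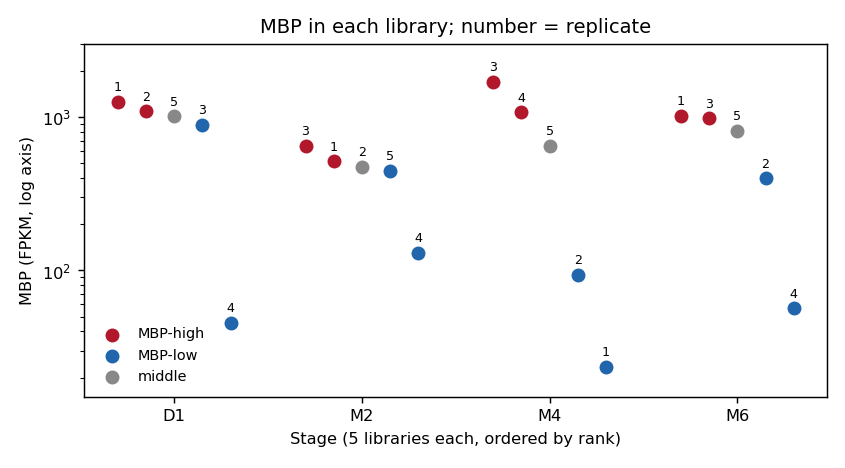
FPKM of MBP (log axis) in the 20 libraries by stage, ordered by rank, with each point labelled by its replicate number and coloured by group. The 5 lowest libraries lie between 23.4 and 130 FPKM and the other 15 between 398 and 1706, so 3 of the 8 MBP-low libraries sit with the upper set.

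The gap between the groups was uneven. Just inside and just outside the upper limit, the second library exceeded the third 1.08-fold in D1, 1.09-fold in M2, 1.66-fold in M4 and 1.21-fold in M6. At the lower limit the third exceeded the fourth 1.14-fold, 1.07-fold, 6.90-fold and 2.03-fold. Of the MBP-low libraries, 5 were under 150 FPKM (D1 replicate 4, M2 replicate 4, M4 replicates 1 and 2 and M6 replicate 4), while D1 replicate 3, M2 replicate 5 and M6 replicate 2 were at 890, 444 and 398 FPKM. The mean log2 difference of MBP was 2.53 in D1, 1.26 in M2, 4.85 in M4 and 2.74 in M6.

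Other myelin genes followed MBP in part. Ranking by MOG, a glycoprotein of the outer myelin surface, would have kept 5 of the 8 MBP-high and 6 of the 8 MBP-low libraries. M2 replicate 1 went against a description as rich in myelin. Its MBP was second in M2, but its sum of 29 other mature myelin genes was the lowest of that stage, at 2736 FPKM against 3545 to 9003 in the others. D1 replicate 3 went against a description as poor in myelin. Its MBP was among the 2 lowest of D1, but its sum of the same 29 genes was 17384 FPKM, above the 12252 and 15861 FPKM of the MBP-high libraries of D1 and close to the highest of that stage, 17427 FPKM. The groups are for this reason called MBP-high and MBP-low and not rich and poor in myelin.

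Some properties of the libraries moved with the groups. MBP-high libraries had fewer genes listed above 0 FPKM, with a mean difference of -372 genes (two-sided exact permutation test within stages, p = 0.0386, n = 8 per group, smallest possible p = 0.00154). With a limit of 0.1 FPKM the difference was -76.9 genes (exact p = 0.545), and with 1 FPKM it was 216 genes more in the MBP-high libraries (exact p = 0.225). The share of reads mapped to the genome was lower in the MBP-high libraries (exact permutation p = 0.0216), and both were below both MBP-low ones in 2 of 4 stages. KLHDC1 alone held 23.9% of the summed FPKM in M2 replicate 3 and 9.83% in M6 replicate 3, both MBP-high, and 0.836% to 4.73% in the other 18. No difference between the groups was detected in that share (exact permutation p = 0.327). The same held for the summed FPKM (exact p = 0.492) and for the share held by the 10 highest genes (exact p = 0.242). The number of reads behind each FPKM was not known, so the precision given is that of the replicates.

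Of 16770 genes tested with limma on log2(FPKM + 0.1), 578 differed between MBP-high and MBP-low libraries, which is 3.45% of the genes tested. A gene was called where its Benjamini-Hochberg adjusted p was under 0.05 and its log2 difference at least 1 in size. Of these, 220 were higher in the MBP-high libraries (1.31%) and 358 were lower (2.13%). Genes of the oligodendrocyte and of its transcription factors were among the higher ones, and genes of neurons were among the lower ones. The median log2 difference of all genes tested was -0.05. A single call in a list of about 20 genes is near these shares and is no result about the list. In a tissue sample, fewer cells of a type and less RNA per cell cannot be told apart.

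The number of calls rested on few libraries. With the mapping rate as a covariate limma called 0 genes, and 1750 had an unadjusted p under 0.05, against 4610 without it. Without M4 it called 0 genes (2945 at an unadjusted p under 0.05), without M2 4 genes and without M6 107 genes, while 554 were called without D1. Leaving out 1 library gave 49 calls without M4 replicate 3, 76 without M2 replicate 4, 106 without M4 replicate 1, 156 without D1 replicate 4, 172 without M6 replicate 3, 176 without D1 replicate 2 and 180 without M4 replicate 4. It gave 290 calls without M6 replicate 2, 334 without M2 replicate 3, 379 without M4 replicate 2 and 1112 without D1 replicate 3. The values below are those of the 16 libraries unless another set is named.

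The relation was also fitted over all 20 libraries, with the log2 FPKM of MBP as a continuous variable and stage as block, and scaled to the mean MBP difference between the groups. This fit called 789 genes, 381 that rose with MBP (2.27% of the genes tested) and 408 that fell (2.43%). It gave an unadjusted p under 0.05 for 5279 of the 16770 genes. It uses the same 16 libraries and the same MBP values as the comparison of 8 against 8, so the calls of one are no independent check of those of the other. With the mapping rate as a covariate it called 678 genes, and without any 1 library 677 to 863. It depended on the 5 libraries under 150 FPKM of MBP. In the other 15 libraries limma called 0 genes, and 1702 had an unadjusted p under 0.05. The 5 libraries were too few for a relation among themselves.

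Of 29 mature myelin genes tested, 5 were called higher in the MBP-high libraries and 0 lower, against 1.31% called higher of all genes tested. Their median log2 difference was 1.54, 28 of the 29 were positive, and 25 were higher at an unadjusted p under 0.05. All 5 calls were lost with the mapping rate as a covariate or without M2, M4 or M6, and between 0 and 23 of the 29 were called when 1 library was left out. The libraries whose omission raised the count were D1 replicate 3 (23), M2 replicate 1 (15) and M2 replicate 5 (10). Counts of 0 came without D1 replicate 2 or 4, M2 replicate 4, any 1 of the 4 M4 libraries or M6 replicate 3, and counts of 1 to 4 without any other.

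MOBP, a small basic protein of the compact myelin of oligodendrocytes (chromosome 22, 12584139 to 12628591), had a lowest value of 550 FPKM, a median of 906 and a highest of 1521 in the MBP-high libraries. In the MBP-low ones the lowest was 54.7, the median 124 and the highest 1499. The log2 difference was 2.31 ± 0.60 (SE of the fit, n = 8 per group, adjusted p = 0.0374 by limma), and the groups overlapped. The MBP-low libraries D1 replicate 3, at 1499 FPKM, and M2 replicate 5, at 639 FPKM, exceeded 1 and 2 of the MBP-high libraries of their stage, respectively. CARNS1, which makes carnosine in oligodendrocytes, ranged from 1.10 to 4.07 FPKM with a median of 2.14 in the MBP-high and from 0.104 to 2.17 with a median of 0.348 in the MBP-low libraries. Its log2 difference was 2.05 ± 0.50 (adjusted p = 0.0340).

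OPALIN, a membrane protein of the paranodal loops of oligodendrocytes, had 51.1 to 127 FPKM in the MBP-high and 8.57 to 63.6 in the MBP-low libraries, a log2 difference of 1.54 ± 0.44 (adjusted p = 0.0464). TMEM88B differed by 2.18 ± 0.62 (adjusted p = 0.0474) and PPP1R14A, an inhibitor of myosin phosphatase, by 1.68 ± 0.42 (adjusted p = 0.0349). Both MBP-high libraries were above both MBP-low ones in 3 of 4 stages for OPALIN and CARNS1 and in 2 for MOBP, TMEM88B and PPP1R14A. None of the 5 was separated in every stage.

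Other abundant members were not called. APOD, a lipid carrier, had a log2 difference of 1.48 ± 0.56 (adjusted p = 0.102), CLDN11, which forms the tight junctions of the myelin sheath, 1.71 ± 0.59 (adjusted p = 0.0796), and CNP, an enzyme of the uncompacted myelin, 1.54 ± 0.54 (adjusted p = 0.0831). CNP had 102 FPKM in M2 replicate 1, an MBP-high library, below the 146 FPKM of the MBP-low M2 replicate 4. It had 716 FPKM in D1 replicate 3, an MBP-low library, above the 589 FPKM of the MBP-high D1 replicate 1. The median log2 difference of the list was 1.23 in D1, -0.09 in M2, 2.87 in M4 and 1.99 in M6. In D1 the sum of the 29 genes was low in 1 of the 2 MBP-low libraries, replicate 4 at 1370 FPKM, while replicate 3 exceeded both MBP-high libraries. The medians of all genes tested were 0.02 in D1, -0.10 in M2, -0.02 in M4 and -0.13 in M6.

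Over all 20 libraries, 25 of the 29 mature myelin genes rose with MBP and 0 fell, against 2.27% of all genes tested. Their median log2 difference was 1.82. MOBP changed by 2.45 ± 0.15, CLDN11 by 2.10 ± 0.21 and CNP by 1.90 ± 0.19 for the mean MBP difference. The 4 members outside the call, named after their values were seen, were TSPAN2, QDPR, TPPP and NINJ2, and TSPAN2 was the negative one, at -0.49. The count was 25 with the mapping rate as a covariate and 24 or 25 without any 1 library. The sum of the 29 genes was 743 to 3545 FPKM in the 5 libraries under 150 FPKM of MBP and 2736 to 20107 in the other 15. Among those 15 alone, 0 of the 29 were called by limma, 2 had an unadjusted p under 0.05, 23 were positive and the median was 0.42.

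**Figure D2:**
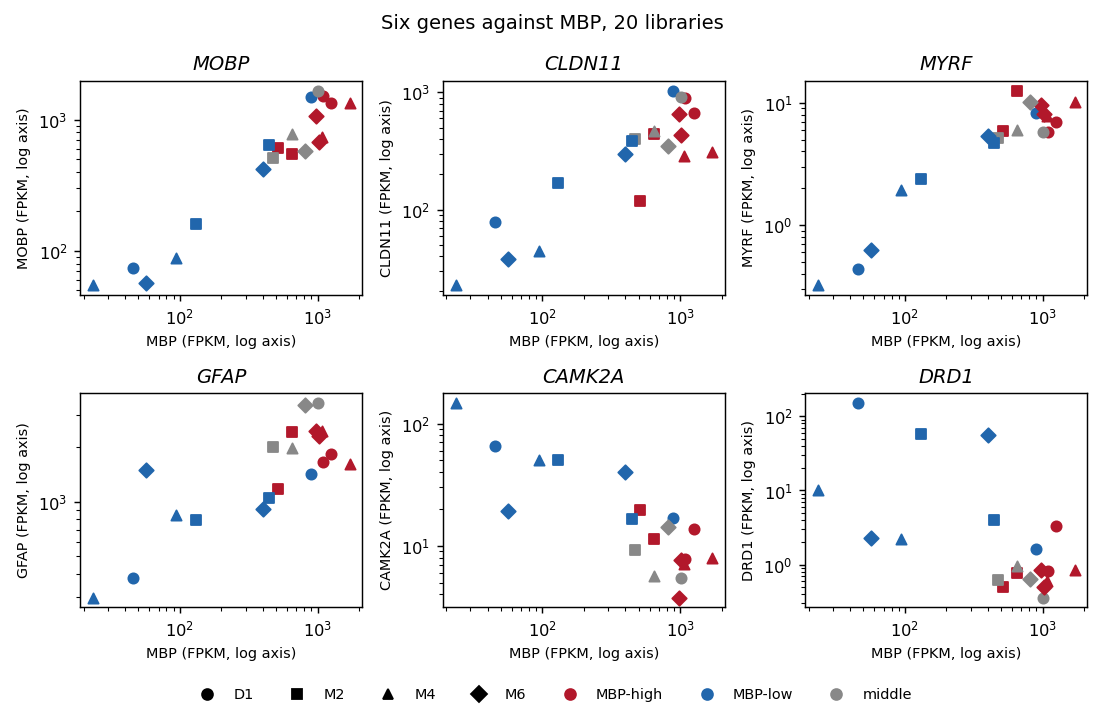
FPKM of 6 genes against the FPKM of MBP in the 20 libraries, both on log axes, with the stage as the shape and the group as the colour of a point. MOBP and MYRF are lowest in the 5 libraries with under 150 FPKM of MBP, CLDN11 is 22.6 to 169 FPKM there and 119 in M2 replicate 1, CAMK2A is 19.3 to 147 FPKM there, and DRD1 is above 50 FPKM in 3 MBP-low libraries.

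Myelin lipid is rich in galactosylceramide, sulfatide and cholesterol, which oligodendrocytes make themselves. Of 20 genes of galactolipid and sphingolipid synthesis, 1 was called higher, against 1.31% of all genes tested, and 0 lower. Their median log2 difference was 0.37. FA2H, the fatty acid hydroxylase that supplies the hydroxylated galactolipids of myelin, was the one called. It had 2.13 to 13.2 FPKM with a median of 6.94 in the MBP-high and 0.123 to 13.1 with a median of 0.772 in the MBP-low libraries, a log2 difference of 2.52 ± 0.67 (adjusted p = 0.0403). D1 replicate 3 alone among the MBP-low libraries exceeded 3 FPKM of FA2H.

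UGT8, which makes galactosylceramide, differed by 1.68 ± 0.60 (adjusted p = 0.0885), and CERS2, the ceramide synthase of very long acyl chains, by 1.48 ± 0.44 (adjusted p = 0.0546). SPTLC1, a subunit of the enzyme that opens the sphingolipid pathway in all cells, was at -0.06 ± 0.16 (adjusted p = 0.848), and PSAP, the precursor of the lysosomal saposins, at 0.20 ± 0.17 (adjusted p = 0.452). In the fit of 20 libraries 5 of these 20 genes rose with MBP, against 2.27% of all genes tested, and their median was 0.37.

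Of 20 genes of cholesterol synthesis, 0 were called by limma in either fit. An unadjusted p under 0.05 was found for 6 and 12, against 27.5% and 5279 of all 16770 genes tested. Of the 20, 19 were positive in the comparison of 8 against 8 and 20 over the 20 libraries, with medians of 0.38 and 0.46. Between the groups the list's median was 0.62 in D1, -0.41 in M2, 0.32 in M4 and 0.66 in M6. In the second fit 10 of the 20 rose at an adjusted p under 0.05 with differences under 1 in log2. Of all 16770 genes tested, 1325 rose at that adjusted p with a difference of any size. SC5D, a late desaturase of the pathway, changed by 0.77 ± 0.18 in that fit and HMGCS1, which acts before the rate-limiting reductase, by 0.47 ± 0.19. Between the groups the values were 0.55 ± 0.30 (adjusted p = 0.238) and 0.25 ± 0.30 (adjusted p = 0.623).

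Of 11 transcription factors of the oligodendrocyte lineage 5 were called higher in the MBP-high libraries and 0 lower, against 1.31% called higher of all genes tested. The median log2 difference was 0.90. MYRF, which switches on myelin genes in the mature cell, had 5.77 to 12.6 FPKM with a median of 8.01 in the MBP-high libraries. In the MBP-low ones it had 0.321 to 8.23 FPKM with a median of 2.15, a log2 difference of 2.10 ± 0.55 (adjusted p = 0.0400). SOX10, which specifies the lineage and acts with MYRF, differed by 1.62 ± 0.45 (adjusted p = 0.0440), and NKX2-2, a factor of differentiating progenitors, by 1.34 ± 0.32 (adjusted p = 0.0317).

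ST18 had the smallest error of these and differed by 1.51 ± 0.30 (adjusted p = 0.0194), with 4.66 to 12.8 FPKM in the MBP-high and 1.09 to 5.48 in the MBP-low libraries. ZNF536 differed by 1.24 ± 0.32 (adjusted p = 0.0393). For each of these 5 factors both MBP-high libraries were above both MBP-low ones in 3 of the 4 stages. OLIG1 (0.78 ± 0.30, adjusted p = 0.104) and OLIG2 (0.79 ± 0.30, adjusted p = 0.104), which are active in progenitors and mature cells alike, did not pass the test. TCF7L2 was at 0.09 ± 0.55 (adjusted p = 0.929) and reached 86.3 FPKM in 1 MBP-low library, above the 18.4 FPKM of the highest MBP-high one. With MBP as a continuous variable 6 of the 11 rose with MBP, against 2.27% of all genes tested, with a median of 1.03. Between the groups 0 to 6 were called when 1 library was left out, with 0 without M2 replicate 4 or M4 replicate 3 and 1 without D1 replicate 2 or 4, M4 replicate 1, 2 or 4 or M6 replicate 3.

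Of 18 genes of progenitors and of newly formed oligodendrocytes, 0 were called by limma between the groups and 6 had an unadjusted p under 0.05. Their median log2 difference was 0.27, and 3 rose with MBP over the 20 libraries, against 2.27% of all genes tested. PDGFRA, the growth factor receptor that marks progenitors, had a median of 34.9 FPKM in the MBP-high and 32.9 in the MBP-low libraries (0.21 ± 0.16, adjusted p = 0.428). PTPRZ1, a phosphatase of progenitors and astrocytes, was at 0.19 ± 0.20 (adjusted p = 0.566). ENPP6 and BCAS1, which mark newly formed oligodendrocytes, were at 2.05 ± 0.62 (adjusted p = 0.0563) and 1.52 ± 0.48 (adjusted p = 0.0639).

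**Figure D3:**
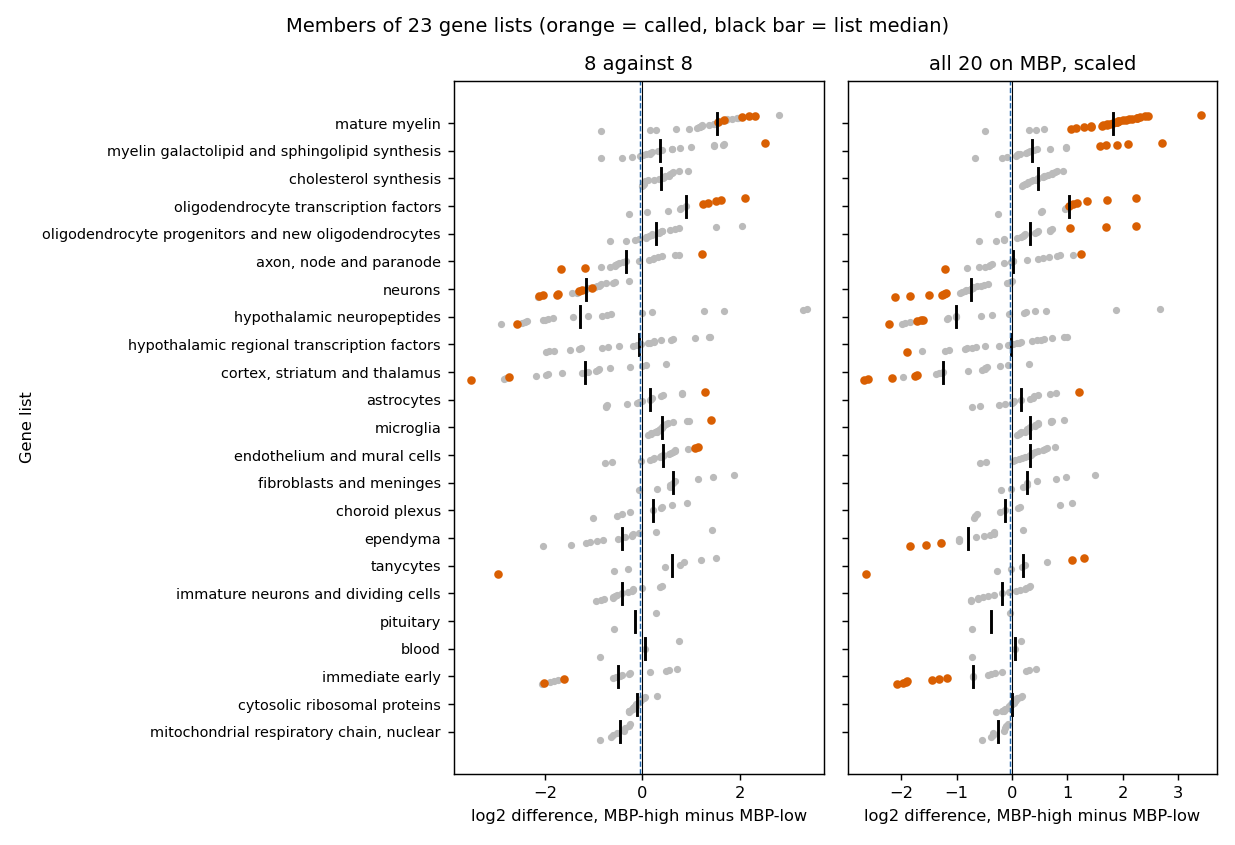
Log2 difference of every tested member of 23 gene lists between MBP-high and MBP-low libraries (left) and over the 20 libraries scaled to the mean MBP difference (right). Orange points were called, black bars are list medians and the dashed line is the median of all genes tested, and the mature myelin list has 5 called of 29 on the left and 25 on the right.

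Of 23 neuron genes 7 were called lower in the MBP-high libraries and 0 higher, against 2.13% called lower of all genes tested, and all 23 were negative, with a median log2 difference of -1.16. CAMK2A, a kinase of excitatory synapses, had 3.77 to 19.5 FPKM with a median of 7.88 in the MBP-high libraries and 16.6 to 147 FPKM with a median of 45.3 in the MBP-low ones. Its log2 difference was -2.13 ± 0.40 (adjusted p = 0.0182). CAMK2B, its partner subunit, differed by -2.03 ± 0.38 (adjusted p = 0.0182), and RBFOX3, the splicing factor detected as NeuN in mature neurons, by -1.73 ± 0.30 (adjusted p = 0.0161).

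Both MBP-high libraries were below both MBP-low ones in all 4 stages for CAMK2B and RBFOX3 and in 3 for CAMK2A. The list's median was -0.28 in D1, -1.21 in M2, -1.29 in M4 and -1.74 in M6. With MBP over the 20 libraries 6 of the 23 fell, against 2.43% of all genes tested, and the median was -0.74. The summed FPKM of the 23 genes was 222 to 2107 in the MBP-high and 1624 to 4412 in the MBP-low libraries, and the lowest value belonged to M6 replicate 3, the library with 9.83% KLHDC1. Without that library 4 of the 23 were called and the median was -0.88. The omission of 1 library gave 1 call without M4 replicate 3, 3 without M2 replicate 4 or M4 replicate 1 or 4, 4 without D1 replicate 2 or 4 or M6 replicate 2, 3 or 4, and 5 to 11 otherwise. All calls were lost with the mapping rate as a covariate, where the median was -0.53 and 5 were lower at an unadjusted p under 0.05.

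Genes of axons, nodes and paranodes went both ways. Of 19, 1 was called higher and 2 lower, against 1.31% and 2.13% of all genes tested. CNTN2, an adhesion protein that holds potassium channels beside the paranode and is made by oligodendrocytes as well as neurons, was higher by 1.23 ± 0.30 (adjusted p = 0.0347). SCN2A, a sodium channel of unmyelinated axons and of the axon initial segment, was at -1.67 ± 0.33 (adjusted p = 0.0194). SCN2A had a median of 11.7 FPKM in the MBP-high and 31.7 in the MBP-low libraries.

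Of 20 neuropeptide genes of the hypothalamus 1 was called lower, against 2.13% of all genes tested, and 0 higher, with a median log2 difference of -1.28. NTS, the precursor of neurotensin, had 1.40 to 56.8 FPKM with a median of 5.14 in the MBP-high and 7.06 to 355 FPKM with a median of 34.0 in the MBP-low libraries (-2.57 ± 0.60, adjusted p = 0.0306). PDYN, the precursor of dynorphin, was at -2.89 ± 0.87 (adjusted p = 0.0550), and PENK, that of enkephalin, at -2.47 ± 0.88 (adjusted p = 0.0879). The median of the list was 0.78 in D1, -1.50 in M2, -0.41 in M4 and -3.11 in M6, and 6 of the 20 were positive in the joint fit. In the fit of 20 libraries 4 fell with MBP, against 2.43% of all genes tested.

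Of 22 transcription factors that mark regions of the hypothalamus 0 were called between the groups by limma, with 10 positive and 12 negative and a median of -0.06. An unadjusted p under 0.05 was found for 3, against 27.5% of all genes tested. FOXB1, a factor of the mammillary region, was at 1.36 ± 0.51 (adjusted p = 0.0987), and DLX1, a factor of inhibitory neurons, at -1.91 ± 0.79 (adjusted p = 0.129). With all libraries 1 of the 22, DLX1, fell with MBP, against 2.43% of all genes tested.

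Markers of brain regions around the hypothalamus were high in part of the MBP-low libraries. Of 18 genes of cortex, striatum and thalamus 2 were called lower in the MBP-high libraries and 0 higher, against 2.13% called lower of all genes tested, 16 were negative, and the median was -1.18. DRD1, the dopamine receptor of striatal projection neurons (chromosome 10, 95514212 to 95518301), had 0.505 to 3.34 FPKM with a median of 0.795 in the MBP-high libraries. The MBP-low libraries had 1.64 and 151 FPKM in D1, 57.2 and 3.99 in M2, 10.1 and 2.20 in M4 and 56.4 and 2.32 in M6, in the order of their replicate numbers. The log2 difference was -3.52 ± 0.86 (adjusted p = 0.0338).

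LHX2, a factor of the developing cortex that is also made in parts of the hypothalamus, was 0 in 5 of the 8 MBP-high libraries and at most 0.726 FPKM, and it was 0.332 to 4.16 FPKM in the MBP-low ones. Its log2 difference was -2.73 ± 0.48 (adjusted p = 0.0161), and -0.91 with 1 FPKM added in place of 0.1, which ended the call. PDE10A, a phosphodiesterase of the striatum, reached 154 FPKM in the MBP-low libraries against a highest value of 4.11 in the MBP-high ones (-2.18 ± 0.69, adjusted p = 0.0618). The summed FPKM of the list was 29.4 to 62.4 in the MBP-high libraries. In the MBP-low ones it was 950 in D1 replicate 4, 446 in M6 replicate 2, 278 in M2 replicate 4, 144 and 137 in M4 replicates 2 and 1, 85.1 in D1 replicate 3, 62.1 in M2 replicate 5 and 58.1 in M6 replicate 4. With MBP as a continuous variable 5 of the 18 fell, against 2.43% of all genes tested. Without the 3 MBP-low libraries over 50 FPKM of DRD1, an alternative chosen after the values were seen, limma called 0 genes in all, and 2861 had an unadjusted p under 0.05. Of this list 12 of 18 were then negative and 5 were lower at an unadjusted p under 0.05. The medians were -1.17 for the neuron genes, with 23 of 23 negative, and 1.48 for the mature myelin genes, with 28 of 29 positive, and 15 and 21 of those genes had an unadjusted p under 0.05 in these directions.

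Immediate early genes, which neurons switch on with activity and which also respond to handling of the tissue, were called lower for 2 of 16 members, against 2.13% of all genes tested, and higher for 0, with a median of -0.49. NPAS4, a factor induced by activity in neurons, was 0 to 0.0618 FPKM in the MBP-high and 0.0110 to 1.06 in the MBP-low libraries (-1.60 ± 0.44, adjusted p = 0.0431). EGR4 was 0 to 0.112 FPKM against 0.0256 to 2.55 (-2.01 ± 0.57, adjusted p = 0.0458). These levels are near the limit of 0.1 FPKM used to test a gene, and the log2 differences depend on the constant added. Of the 16, 7 fell with MBP over the 20 libraries, against 2.43% of all genes tested.

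Among the other glia, astrocyte genes were called higher for 1 of 15, against 1.31% of all genes tested, and lower for 0. Of the 15, 8 were positive and 7 negative, with a median of 0.16. The list's median was 0.35 in D1, -0.41 in M2, 0.31 in M4 and -0.10 in M6. GFAP, the intermediate filament of astrocytes that is strong in those of white matter (chromosome 19, 44249431 to 44258886), had 1169 to 2470 FPKM with a median of 2074 in the MBP-high and 296 to 1491 with a median of 878 in the MBP-low libraries. It was separated in all 4 stages, and its log2 difference was 1.29 ± 0.34 (adjusted p = 0.0403). SLC1A2, the glutamate transporter of astrocytes around synapses, was at -0.75 ± 0.28 (adjusted p = 0.0998), and ALDH1L1, a cytosolic enzyme of astrocytes, at 0.82 ± 0.30 (adjusted p = 0.0927). The list's summed FPKM, which includes that of GFAP, was 4153 to 6369 in the MBP-high and 2817 to 4876 in the MBP-low libraries.

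Of 18 microglia genes 1 was called higher, against 1.31% of all genes tested, and 0 lower. All 18 were positive, with a median of 0.41. SELPLG, a selectin ligand of microglia and other leukocytes, differed by 1.40 ± 0.32 (adjusted p = 0.0291) and was separated in all 4 stages. CSF1R, the receptor on which microglia depend, was at 0.95 ± 0.30 (adjusted p = 0.0614) and TREM2, a lipid receptor of microglia, at 0.92 ± 0.35 (adjusted p = 0.0993). With MBP as a continuous variable 0 of the 18 were called by limma, 7 had an unadjusted p under 0.05, and all 18 were positive.

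Of 18 genes of vessels 2 were called higher, against 1.31% of all genes tested, and 0 lower, with a median of 0.43. ERG, an endothelial transcription factor, had 2.57 to 7.40 FPKM in the MBP-high and 1.64 to 3.13 in the MBP-low libraries (1.09 ± 0.25, adjusted p = 0.0281), and VWF, a clotting protein of endothelium, differed by 1.15 ± 0.31 (adjusted p = 0.0414). Neither was called over the 20 libraries. Of 9 fibroblast genes 0 were called by limma in either fit, with 3 at an unadjusted p under 0.05 in each. Of all 16770 genes tested, 27.5% were under that limit between the groups and 5279 genes in the fit of 20 libraries. COL1A2, a chain of type I collagen, was at 1.45 ± 0.42 (adjusted p = 0.0502).

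Of 14 ependyma genes 0 were called between the groups by limma, and their median was -0.42. An unadjusted p under 0.05 was found for 4, against 27.5% of all genes tested. Over the 20 libraries 3 fell with MBP, against 2.43% of all genes tested, with a median of -0.80. Of 8 genes linked to tanycytes, the glia that line the third ventricle, 1 was called lower and 0 higher. Of all genes tested, 2.13% were called lower. The list went both ways, with 5 positive and 3 negative and a median of 0.61. Over the 20 libraries 2 of the 8 rose with MBP and 1 fell. The gene called lower between the groups was CRYM, a thyroid hormone binding protein that is also made by striatal and cortical neurons. CRYM had a median of 2.08 FPKM in the MBP-high and 13.4 in the MBP-low libraries (-2.95 ± 0.67, adjusted p = 0.0280). Its highest value, 74.5 FPKM, was that of D1 replicate 4, which also had the highest DRD1.

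By limma, 0 genes were called between the groups or over the 20 libraries among 9 of the choroid plexus, 15 of immature neurons and dividing cells, 2 of the pituitary, 3 of blood, 24 cytosolic ribosomal proteins and 8 nuclear genes of the respiratory chain. Unadjusted p values under 0.05 between the groups were found for 1, 3, 0, 0, 0 and 5 of them in this order, against 27.5% of all genes tested. Their medians between the groups were 0.23, -0.41, -0.14, 0.06, -0.11 and -0.45. The respiratory chain list held 20 genes, of which only 8 were matched by symbol and tested. All 8 were negative, and 3 were lower at an adjusted p under 0.05, against 4.79% of all genes tested. Among these 3 was NDUFA4, at -0.87 ± 0.18 (adjusted p = 0.0215). The pituitary list summed to at most 3.77 FPKM and the blood list to at most 7.26 FPKM in any library, and HBM was listed at 0 in all 20. Only 5 of the 11 genes on the blood list were matched by symbol. Its sum leaves out the rest and does not measure how much blood a library held.

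Beyond the lists, genes were sought that separated the groups in every stage. Both MBP-high libraries were above both MBP-low ones in all 4 stages for 92 genes (0.549% of the 16770 tested) and below for 319 (1.9%). Of these, 41 (0.244% of all genes tested) and 106 (0.632%) were also called. How many genes would be separated without a relation to MBP was not tested. PDP1 (chromosome 14, 11854161 to 11862684), a phosphatase that activates the pyruvate dehydrogenase complex of mitochondria, had the smallest p of all genes tested. It had 17.5 and 12.4 FPKM in D1, 9.05 and 9.25 in M2, 16.5 and 13.6 in M4 and 15.5 and 8.81 in M6 in the MBP-high libraries. The MBP-low libraries had 94.5 and 116, 36.5 and 17.4, 133 and 117 and 53.2 and 28.7 FPKM in the same stages, so the groups did not overlap in any stage. The log2 difference was -2.26 ± 0.25 (adjusted p = 0.00219), and the 4 middle libraries had 10.6 to 14.5 FPKM, within the range of the MBP-high ones.

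The 10 genes with the largest falls among those called and separated in every stage, outside the lists and with a symbol, were CDKL1, FBXO15, SLC44A3, PHF24, PCP4L1, PDP1, C15H11orf87, KCNV1, NELL2 and LZTS1, with log2 differences of -2.50 to -2.14. CDKL1, a kinase related to those of the cell cycle, had a median of 2.01 FPKM in the MBP-high and 11.0 in the MBP-low libraries (-2.50 ± 0.42, adjusted p = 0.0161). NELL2, a secreted protein of neurons, had 12.7 and 74.4 FPKM (-2.20 ± 0.39, adjusted p = 0.0161), and KCNV1, a silent subunit of potassium channels, 0.839 and 3.11 FPKM (-2.21 ± 0.44, adjusted p = 0.0194).

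The 10 with the largest rises were RIN3, PSD4, CERCAM, CEP152, RBPMS, THBS2, EHD2, LAMC1, FYB and BNC2, with differences of 1.54 to 1.90. RBPMS, an RNA-binding protein, had the smallest p of these, with 5.01 to 41.6 FPKM in the MBP-high and 2.53 to 8.45 in the MBP-low libraries (1.66 ± 0.23, adjusted p = 0.0108). Its 2 highest values, 34.7 and 41.6 FPKM, were those of M2 replicates 1 and 3. RIN3, a regulator of endocytosis, had 0.824 to 4.54 FPKM in the MBP-low libraries and 2.62 to 25.8 in the MBP-high ones (1.90 ± 0.34, adjusted p = 0.0170). LAMC1, a laminin chain of basement membranes, differed by 1.61 ± 0.29 (adjusted p = 0.0182) and CERCAM by 1.73 ± 0.31 (adjusted p = 0.0161).

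**Figure D4:**
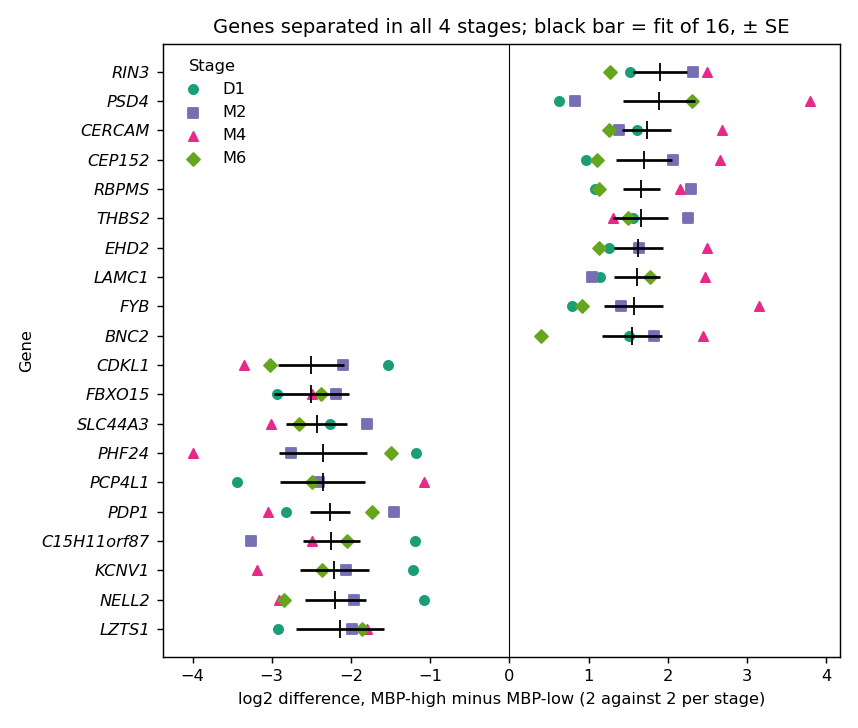
Log2 difference between the MBP-high and MBP-low libraries in each stage (2 against 2, coloured shapes) for the 20 genes described, with the fit over the 16 libraries ± SE in black. Every stage lies on the same side of 0 for each gene, by the rule that chose them, and the fitted values run from -2.50 to 1.90.

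The 10 genes whose deviations from the stage mean most resembled those of MBP over the 20 libraries (ranked by Pearson's r of log2 values) included RFFL, GALNT6, OTUD7B, MOBP, ARHGEF37, PPP1R14A, ARHGEF10, FA2H and MYRF. No coefficient is given, because 5 libraries stood apart from the other 15. In those 5 libraries RFFL, a ubiquitin ligase (chromosome 19, 14637693 to 14711886), had 2.96 to 6.23 FPKM, and in the other 15 it had 10.5 to 23.6 FPKM. GALNT6, which starts O-linked glycans, had 0.473 to 3.00 and 4.95 to 13.1 FPKM. Since the genes were chosen for their likeness to MBP and the sets by MBP itself, their separation is a description of that choice.

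The stages were also compared with each other. Within a stage, with 2 libraries against 2, limma called 0 genes in D1, 4 in M2, 27 in M4 and 0 in M6, and 520, 3411, 3236 and 1724 had an unadjusted p under 0.05. An interaction of group with stage was found for 1 gene at an adjusted p under 0.05, and 1386 genes had an unadjusted p under 0.05. The gene was C14H8orf37, which encodes a ciliary protein of photoreceptors (adjusted p of the interaction = 0.0206). It had 3.55 and 2.67 FPKM in the MBP-high libraries of M2, replicates 1 and 3, and 18.0 to 41.2 FPKM in the other 18 libraries. When 1 library was left out, 0 to 8 genes had an interaction, with 8 without M6 replicate 1. The median of -0.09 of the mature myelin genes in M2 beside 2.87 in M4 was not tested as a difference between stages.

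The 4 middle libraries, which were not used for the calls between the groups, had 511 to 1663 FPKM of MOBP, 1984 to 3500 of GFAP and 5.47 to 14.2 of CAMK2A. Their median of MOBP, 674 FPKM, lay between those of the groups, while that of GFAP, 2703, was above the 2074 of the MBP-high libraries. For mature myelin genes the middle library lay between the group means of its stage in 36.2% of stage values. This share was 33.5% for all genes tested and 55.1% for the genes called.

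**Figure D5:**
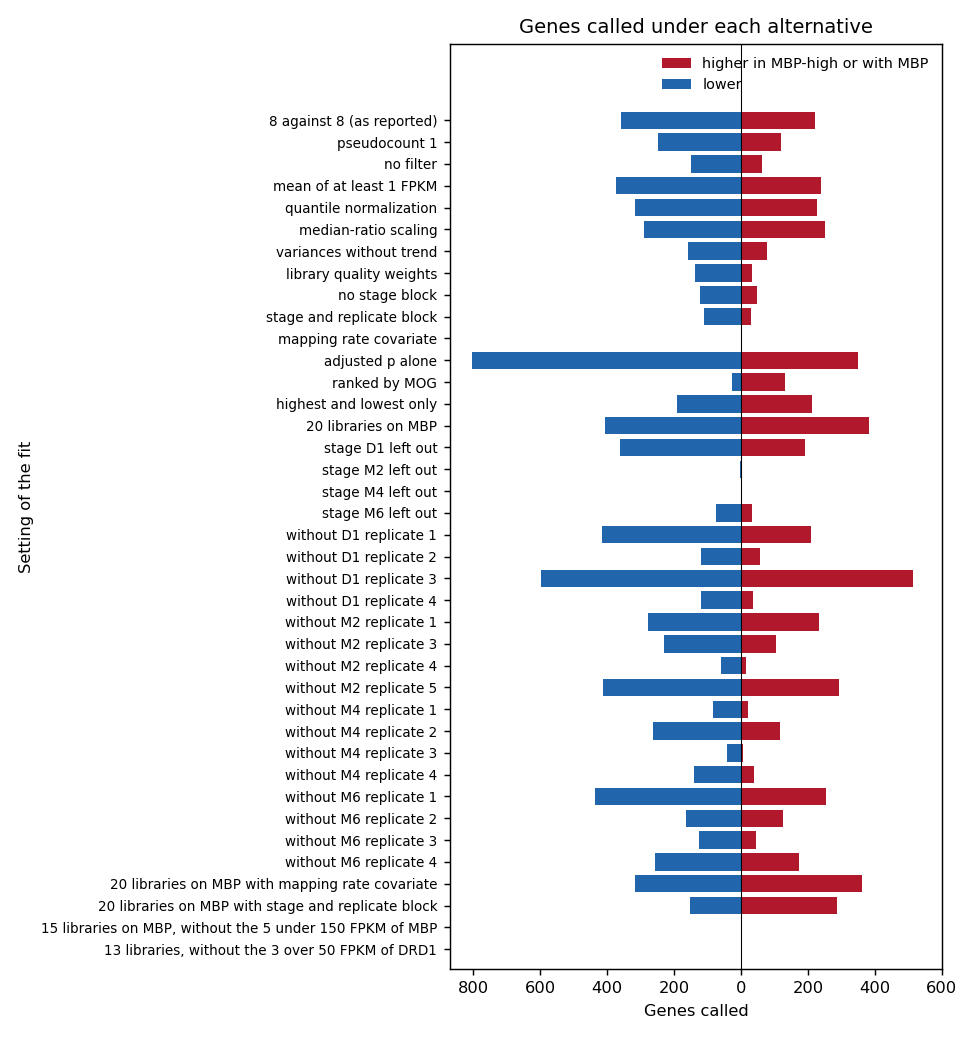
Number of genes called higher (red, to the right) and lower (blue, to the left) under each setting of the fit, starting with the comparison of 8 against 8 at 220 and 358. No gene is called with the mapping rate as a covariate, without stage M4, among the 15 libraries with over 150 FPKM of MBP, or without the 3 MBP-low libraries over 50 FPKM of DRD1.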

How the data were processed

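The deposited file held 1 FPKM per gene and library for 21071 genes in 20 libraries. The authors trimmed reads with fastp, aligned them with HISAT2 2.0.5 to the goat genome ARS1.2, assembled transcripts with StringTie 1.3.3b and calculated the deposited FPKM, which holds no counts. FPKM divides by a library's total, so an abundant transcript lowers the others. Gene symbols came from the RefSeq annotation of that build (20610 of 21071 gene IDs matched). The study sampled 5 goats per stage, but the labels do not tie libraries to animals, so p-values measure the spread between libraries.

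A gene other than MBP was tested if 5 or more of the 20 libraries had 0.1 FPKM or more. The test was limma 3.58.1 (R 4.3.3) on log2(FPKM + 0.1), with stage as block and moderated variances with trend. The p-values were adjusted by Benjamini-Hochberg over all 16770 genes. The thresholds were those of the study's lncRNA analysis. The fit was tested on simulated data. Single values per library were compared by two-sided exact permutation within stages (1296 assignments). The mapping rate, a measure of each library from the study's supplement, was used as a covariate and its values are not given. Python 3.11.15, pandas 2.3.3, numpy 2.4.6, scipy 1.17.1 and matplotlib 3.10.9 were used.

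The members, the 23 gene lists and the tests were chosen with earlier results of these data known. Named genes were MBP, called members and up to 4 abundant uncalled members of the myelin, lipid and oligodendrocyte lists (at most 8 called), up to 4 members with the smallest p of the other lists, the 10 largest rises and falls separated in all 4 stages, the 3 smallest interaction p and the 10 genes most like MBP. Alternatives changed the pseudocount, filter, scaling, variances, weights, block, covariate, threshold, ranking gene and libraries. Alternatives of the 20-library fit, and 1 without 3 libraries, were added after seeing the data. Sequences were not analysed here, and some genes chosen by this rule, and the ranking by 1 of them, are not reported here.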

Additional observations from a re-analysis of the deposited data

Results flagged for a closer look

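Within the 5 libraries of a stage, a value is given where its gap on a log2 scale to the nearest other exceeded 0.71 of the group's range, Dixon's 95% limit for 5 samples. This was done for 32 groups of values, and chance gives such a gap in about 1 of 20 groups. MBP in D1 replicate 4 (45.6 FPKM) had a gap of 0.897 of the range, and MBP in M2 replicate 4 (130 FPKM) a gap of 0.764. The summed mature myelin genes of D1 replicate 4 (1370 FPKM) had a gap of 0.861. The summed neuron genes of M6 replicate 3 (222 FPKM, an MBP-high library) were the lowest of M6 with a gap of 0.751, and the summed genes of cortex, striatum and thalamus in M6 replicate 2 (446 FPKM) the highest with a gap of 0.787. C14H8orf37 differed between stages in its contrast, with an adjusted p of the interaction of 0.0206 by limma.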

How the results depend on the processing

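Compared with 578 genes and 5 mature myelin genes called, the alternatives gave the following, and the cause of a change was not tested. Pseudocount 1 called 365 genes, no filter 212 genes and 0 mature myelin genes, and a mean of at least 1 FPKM 8 mature myelin genes. Variances without trend called 236, library quality weights 170 and no stage block 171 genes, each with 0 mature myelin genes. Adjusted p alone called 1152 genes. The mapping rate as a covariate left 0 genes and 0 mature myelin genes. Ranking by MOG called 160 genes (132 higher and 28 lower, so 82.5% higher against 38.1% of 220 and 358) and 10 mature myelin genes. The highest against the lowest library of each stage gave 21. Without D1, M2, M4 or M6 the genes called were 554, 4, 0 and 107, and the mature myelin genes 3, 0, 0 and 0. Leaving out 1 library gave 49 to 1112 genes, 0 to 23 mature myelin genes and 0 to 8 genes with an interaction.

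With stage and replicate block, 140 genes and 0 mature myelin genes were called. Replicate numbers did not pair libraries: the deviations of same-numbered libraries of different stages had a median r of -0.011 (30 pairs), and those of others 0.004 (120 pairs). The fit of 20 libraries on MBP called 25 mature myelin genes, 25 with the mapping rate and 23 with the replicate block (442 genes), 24 or 25 without any 1 library and 0 (of 0 genes) without the 5 lowest libraries. Without the 3 libraries over 50 FPKM of DRD1, 0 genes and 0 mature myelin genes were called. The number of genes above 0 FPKM differed by -372, with limits of 0.1 and 1 FPKM by -76.9 and 216. For the 129 named genes, 7466 values under alternatives gave 5879 with the same call, 1092 that lost and 495 that gained the call, and 0 that reversed a call. FPKM without read counts gives no limit set by depth.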
